A study of Mus musculus with 21 samples.

Results

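The 7 gene loci described here, Sptlc1, Trpc4ap, Itch, Zfp977, Zfp33b, Serpina3h and Spdye4c, hold regions with strong decreases of H3K4me1 in formative compared with naive mouse embryonic stem cells. They were selected on the formative minus naive differences in WT cells and in the floxed line, so those differences are a description here and support nothing. All regions whose nearest gene is a member were taken, at any distance, which gave 44 of the 186826 regions in the table. Sptlc1 had 8 regions, Trpc4ap 6, Itch 7, Zfp977 7, Zfp33b 5, Serpina3h 2 and Spdye4c 9. No filter on low values was applied, and all 44 regions had levels.

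The assay was CUT&RUN: a nuclease tethered by an antibody cuts around a chromatin mark, and the DNA set free is sequenced. Its 16 H3K4me1 libraries form 8 groups of 2, from 4 genotypes in 2 states. Formative cells had been without LIF and the 2 inhibitors (2i) for 63 h, and naive cells carry no such treatment label. The genotypes are MLL3KO_MLL4KO (DKO), MLL3CD_MLL4CD (dCD), MLL3KO_MLL4fl (the floxed line) and WT. DKO and the floxed line share the loss of MLL3, and DKO also lacks MLL4. The CD alleles are read here as catalytically dead forms of both enzymes. WT and dCD cells carry the line label R1, whereas the floxed line and DKO carry no line label, and the labels give no number of clones for any genotype. DKO was therefore set against the floxed line and dCD against WT. The labels give the H3K4me1 antibody under 2 catalogue numbers, of which the protocol's is known as an H3K27ac antibody, so the mark is named as labelled.

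MLL3 and MLL4 (Kmt2c and Kmt2d) are the main enzymes that place a single methyl group on lysine 4 of histone H3 at enhancers. H3K4me1 marks enhancers that are active or poised, and H3K27ac at the same place is commonly read as a sign of activity. When cells leave the naive state, enhancers of naive genes are decommissioned while formative enhancers gain the mark. The 7 loci are not a pathway. Sptlc1 encodes a subunit of serine palmitoyltransferase, the first enzyme of sphingolipid synthesis. Trpc4ap encodes a substrate receptor of CUL4-DDB1 ubiquitin ligases, and Itch a HECT-type ubiquitin ligase of the NEDD4 family. Zfp977 and Zfp33b are zinc finger genes, Serpina3h is a clade A serpin of a mouse gene cluster, and Spdye4c belongs to the Speedy family, whose founding members activate cyclin-dependent kinases.

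At each locus the region with the lowest WT formative minus naive difference is called the lost region. Among all 186824 regions with levels, the 7 lost regions ranked between 38 (Sptlc1) and 5067 (Itch) by their WT decrease, and between 99 (Zfp33b) and 13479 (Trpc4ap) by that in the floxed line, so not every locus is extreme in both. The central 300 bases of 3 lost regions are shown because their surroundings differ from each other. That of Sptlc1 is the lowest of a run of intronic decreases, and that of Itch has both lower and higher regions on its flanks. That of Zfp977 sits in a zinc finger cluster where most regions were lower. The 3 windows are given from the plus strand of the RefSeq GRCm38 (mm10) sequence, at chr13:53364705-53365004, chr2:155142591-155142890 and chr7:42586980-42587279, all intronic in GENCODE vM21. Capitals mark motif matches.
Sptlc1: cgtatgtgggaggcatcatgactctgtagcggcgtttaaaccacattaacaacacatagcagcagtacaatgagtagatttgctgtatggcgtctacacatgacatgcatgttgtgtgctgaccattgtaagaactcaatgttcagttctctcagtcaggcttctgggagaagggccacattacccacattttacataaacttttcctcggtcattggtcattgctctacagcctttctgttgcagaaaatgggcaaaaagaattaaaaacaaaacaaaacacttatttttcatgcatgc
Itch: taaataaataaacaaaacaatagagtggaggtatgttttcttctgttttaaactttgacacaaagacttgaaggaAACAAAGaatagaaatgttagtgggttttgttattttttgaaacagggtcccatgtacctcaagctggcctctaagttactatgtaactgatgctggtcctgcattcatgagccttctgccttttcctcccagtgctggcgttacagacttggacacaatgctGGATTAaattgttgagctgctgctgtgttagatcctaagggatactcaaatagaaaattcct
Zfp977: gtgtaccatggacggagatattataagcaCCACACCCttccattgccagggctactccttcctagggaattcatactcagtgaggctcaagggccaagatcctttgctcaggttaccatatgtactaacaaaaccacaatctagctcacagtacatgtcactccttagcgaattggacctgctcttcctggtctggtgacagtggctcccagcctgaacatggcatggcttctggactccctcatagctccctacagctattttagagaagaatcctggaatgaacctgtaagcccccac

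The motifs searched on both strands were ATGCAAAT (octamer, POU5F1), AACAAAG (SOX), AAGGTCA (ESRRB and other nuclear receptors), GGGTGTGG (KLF), TTCCNGGAA (STAT3), GGATTA (OTX2) and CACGTG (E-box). The Itch window held AACAAAG and GGATTA, which occur in 8.32% and 11.03% of the central windows of 186812 regions. The Zfp977 window held the KLF motif on the minus strand, a match found in 3.37% of windows. The Spdye4c window held AAGGTCA, found in 6.83% of windows. None of these letters occurred in the windows of Sptlc1, Trpc4ap, Zfp33b and Serpina3h, and none of the 7 central windows held the octamer, STAT3 or E-box letters, which occur in 2.18%, 0.991% and 4.40% of all windows. A match is a description of letters and not a bound site. Over their full widths the 7 lost regions held 0.39 to 1.14 CpG per 100 bp, with a median of 0.52. Over all regions, promoters included, the median was 1.17 and the quartiles 0.80 and 1.61. The lost regions of Sptlc1, Trpc4ap and Spdye4c lay between these quartiles and the others below them. The GC content of the 7 ran from 40.3% to 46.1%, against a median of 46.2%. Between 3.8% and 37.4% of their bases were soft-masked as repeats, around the median of 18.4% over all regions.

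The table holds 1 pooled H3K4me1 level per group, so no spread between the 2 libraries can be had and no test was run. Differences are on the log2 scale, and a difference of 1 is 2-fold. Normalized reads, worked back from the levels, give the depth. The interval beside a difference is an exact binomial 95% interval that treats the rounded normalized reads as counts. It covers counting error only. These reads are on the scale of the authors' mean normalized reads, not of the summed counts of the 2 libraries. Intervals from summed counts could be narrower. Median normalized reads per region over the whole table ran from 29.6 to 39.3 among the 8 groups, with DKO and dCD below the floxed line and WT in both states. In formative compared with naive WT cells, 4 of 10 naive pluripotency loci were lower by at least 1.5-fold, against 15.1% of all loci. The other naive loci ran from −0.56 at Klf5 to 0.42 at Nr0b1. Of 8 formative loci, 4 were higher, against 12.8% of all loci, and the others ran from 0.01 at Otx2 to 0.46 at Lef1. Fibroblast loci (4 of 6) and primitive endoderm loci (3 of 5) were also higher, so these counts do not check the state labels. In these bulk samples, fewer cells carrying a mark and less mark per cell cannot be told apart.

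The Sptlc1 lost region lies in an intron at chr13:53363910-53365798, 12.5 kb inside the gene. In DKO it had 22.8 normalized reads in formative and 26.5 in naive cells. In dCD it had 25.8 in formative and 18.3 in naive cells. The floxed line had 17.3 in formative and 80.4 in naive cells, and WT had 7.8 in formative and 80.2 in naive cells. The naive floxed and WT groups stood far above the other 6 groups, which lay between 7.8 and 26.5. The formative minus naive difference was −0.22 in DKO (interval −1.10 to 0.63), 0.48 in dCD (−0.39 to 1.48), −2.17 in the floxed line (−3.08 to −1.47) and −3.24 in WT (−4.58 to −2.27). The WT value, 9.47-fold lower, had an FDR of 6.77e-10 in the authors' deposited table.

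The Serpina3h lost region overlaps exons of that gene at chr12:104249173-104252232. It had 19.8 normalized reads in formative and 34.9 in naive DKO cells, and 13.9 in formative and 32.6 in naive dCD cells. Floxed cells had 27.9 in formative and 102.6 in naive cells, and WT 14.5 in formative and 114.1 in naive cells. All 4 genotypes were lower in the formative state. The difference was −0.76 in DKO (interval −1.68 to 0.03), −1.13 in dCD (−2.25 to −0.30), −1.81 in the floxed line and −2.83 in WT, which gave the authors' deposited table an FDR of 2.88e-11. The dCD interval lay below 0 and the DKO interval just reached it, a contrast that intervals from summed counts might not keep.

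The Zfp33b lost region lies at chr5:104574615-104577423, in an intron per the deposited annotation, where GENCODE vM21 has no gene. It had 45.7 normalized reads in formative and 56.2 in naive DKO cells, and 22.2 in formative and 68.3 in naive dCD cells. In floxed cells it had 9.7 in formative and 81.7 in naive cells, and WT 10.6 in formative and 75.4 in naive cells. The 4 naive groups lay between 56.2 and 81.7 reads, and the formative floxed and WT groups were the lowest. Differences were −0.29 in DKO (interval −0.88 to 0.30), −1.56 in dCD (−2.39 to −0.92), −2.89 in the floxed line and −2.65 in WT.

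The Zfp977 lost region, in an intron at chr7:42586546-42587713, was the shallowest of the 7. It had 15.1 normalized reads in formative and 12.2 in naive DKO cells, and 9.7 in formative and 38.1 in naive dCD cells. The floxed line had 4.9 in formative and 27.1 in naive cells, and WT 2.9 in formative and 28.6 in naive cells. Naive dCD was the highest group and naive DKO was below the other naive groups. The difference was 0.30 in DKO (interval −0.87 to 1.55), −1.94 in dCD (−3.10 to −0.89), −2.40 in the floxed line and −3.19 in WT (−5.63 to −1.58). The wide WT interval reflects the small counts. A deeper Zfp977 region at chr7:42559066-42562588, 59.0% soft-masked and overlapping Gm44997, had 9.9 reads in formative and 86.1 in naive WT cells, and the lowest FDR of the locus in the authors' deposited table, 3.50e-11. There the difference was −0.04 in DKO, −0.20 in dCD, −2.78 in the floxed line and −2.84 in WT. The lost region and this outer region thus differed most in dCD, at −1.94 and −0.20.

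The remaining 3 lost regions lie on chromosome 2. That of Trpc4ap, at chr2:155662512-155664610 over Trpc4ap exons, had 43.5 normalized reads in formative and 44.4 in naive DKO cells, and 24.8 in formative and 30.1 in naive dCD cells. Floxed cells had 38.6 in formative and 87.7 in naive cells, and WT 11.9 in formative and 85.4 in naive cells. Differences were −0.03 in DKO (interval −0.64 to 0.64), −0.27 in dCD, −1.16 in the floxed line and −2.75 in WT. The floxed and WT lines, both high in the naive state, had different formative levels: the floxed line was 1.63 above WT on the log2 scale (interval 0.74 to 2.77). The region was chosen for its low WT difference, so this gap is in part set by the choice and is a description only.

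The Itch lost region, in an intron at chr2:155141089-155144391, had 45.4 normalized reads in formative and 29.9 in naive DKO cells, and 36.8 in formative and 36.0 in naive dCD cells. In floxed cells it had 18.0 in formative and 103.3 in naive cells, and WT 29.6 in formative and 94.6 in naive cells. DKO was the only genotype of the 4 whose point value was higher in the formative state by more than 0.5, with a difference of 0.57 (interval −0.11 to 1.30). Differences were 0.03 in dCD, −2.39 in the floxed line and −1.60 in WT.

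The Spdye4c lost region overlaps that gene's exons near its start, at chr2:128591182-128593750. It had 17.7 normalized reads in formative and 25.9 in naive DKO cells, and 15.5 in formative and 21.0 in naive dCD cells. The floxed line had 19.5 in formative and 82.3 in naive cells, and WT 12.6 in formative and 55.4 in naive cells. Differences were −0.52 in DKO, −0.41 in dCD, −2.004 in the floxed line and −2.03 in WT. The 4 formative groups lay between 12.6 and 19.5 reads and the 4 naive groups between 21.0 and 82.3.

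**Figure D1:**
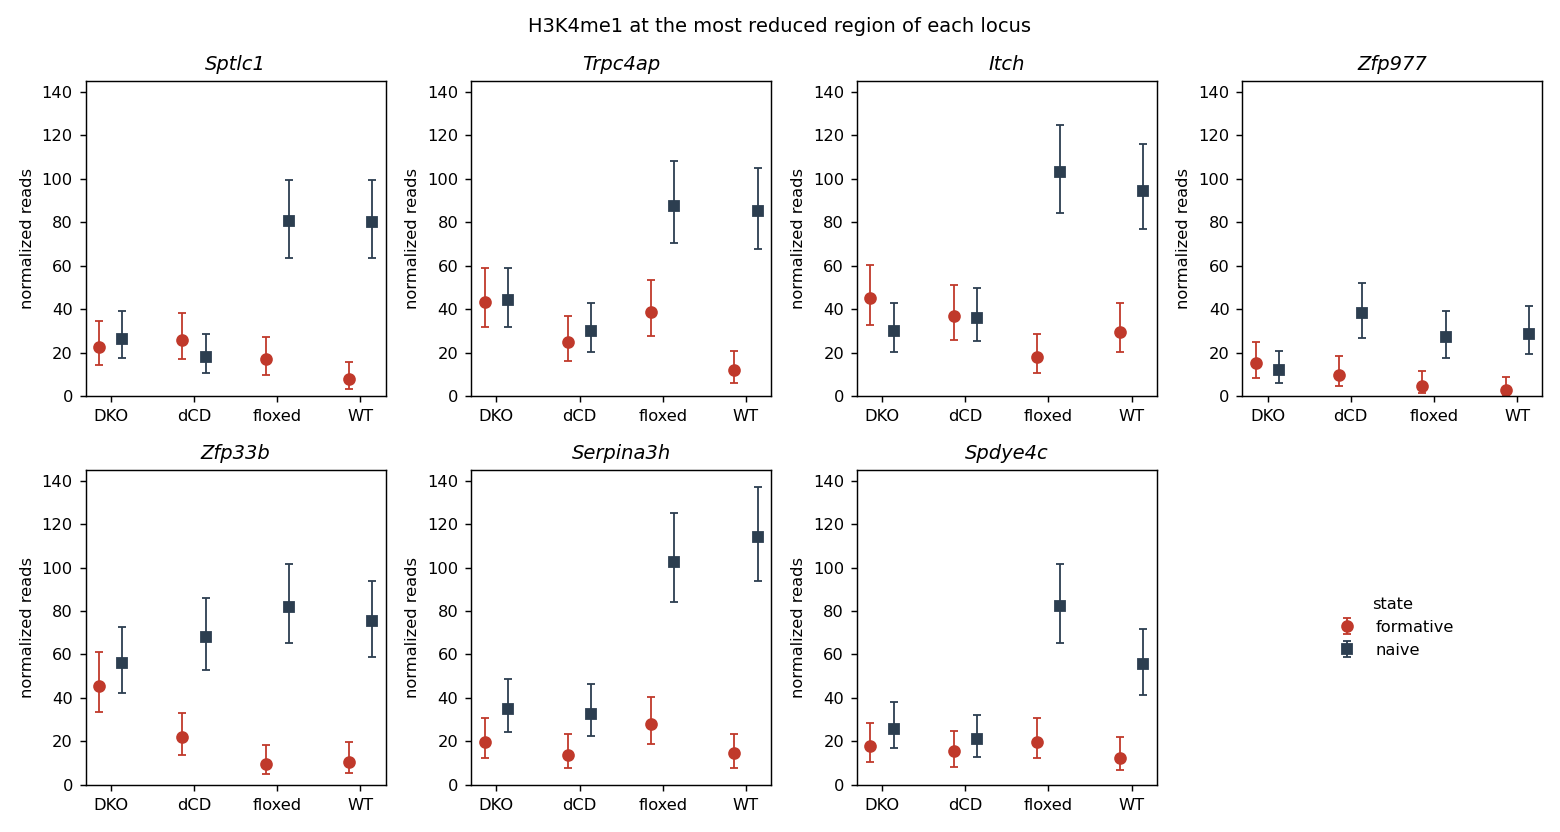
Normalized H3K4me1 reads at the lost region of each locus, formative (circles) left of naive (squares), for 4 genotypes. Bars are exact Poisson 95% intervals for counting error that treat these mean normalized reads as counts. Each point is a pooled group of 2 libraries. The naive floxed and WT points stand highest at 6 loci, and at Zfp977 naive dCD is highest, with 38.1 reads.

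Across the 7 lost regions, 0 were 2-fold lower in formative DKO than in naive DKO, against 1.25% of all regions, and the difference ran from −0.76 to 0.57 with a median of −0.22. In dCD, 3 of 7 were 2-fold lower, namely Zfp977, Zfp33b and Serpina3h, against 2.47% of all regions, and the median was −0.41. In the floxed line all 7 were lower, from −2.89 to −1.16, and in WT all 7, from −3.24 to −1.60, as the selection ensured. Every DKO interval included 0 on the scale of mean reads, that of Serpina3h only just. The medians over all regions were −0.01 in DKO and −0.04 in dCD.

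The mutant differences divide by state. In naive cells 5 of the 7 lost regions were 2-fold lower in DKO than in the floxed line, against 15.9% of all regions, with a median of −1.504, from −1.72 at Itch to −0.53 at Zfp33b. In dCD against WT 5 of 7 were 2-fold lower, against 13.9% of all regions, with a median of −1.34 and values from −2.09 at Sptlc1 to 0.41 at Zfp977. With each group centred on its median, these counts became 4 of 7 in DKO and 3 of 7 in dCD. In formative cells 0 of 7 were 2-fold lower in DKO than in the floxed line, against 16.7% of all regions, and 3 were 2-fold higher, against 6.47%: Itch by 1.24, Zfp977 by 1.57 and Zfp33b by 2.07. In formative dCD against WT, 3 were 2-fold higher, against 2.59% of all regions, Sptlc1 by 1.63, Trpc4ap by 1.01 and Zfp977 by 1.66. Since high naive and low formative values in WT and the floxed line chose the members, the direction of these differences is in part set by the choice.

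Over all 44 regions, 0 were 2-fold lower in formative than in naive DKO cells, against 1.25% of all regions, and 1 was 2-fold higher, against 1.2% of all regions. In dCD 6 of 44 were lower, against 2.47% of all regions. In the floxed line 24 were lower and 4 higher, against 10.6% and 9.33% of all regions, and in WT 21 were lower and 5 higher, against 11.4% and 11.1%. The authors' deposited table put 21 of the 44 at an FDR under 0.05 in the lower direction, against 10.5% of all regions. These floxed and WT counts follow from the selection and are not read further. The 21 regions lower in WT included 20 that were lower in the floxed line, 6 in dCD and 0 in DKO. Of all 21235 regions 2-fold lower in WT, 52.3% were lower in the floxed line, 7.81% in dCD and 2.94% in DKO. The floxed overlap follows from the selection on both lines, and 0 of 21 in DKO is near the share over all such regions. The 6 dCD regions were 1 of Sptlc1, 3 of Zfp977 and 1 each of Zfp33b and Serpina3h, so none was at Trpc4ap, Itch or Spdye4c.

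**Figure D2:**
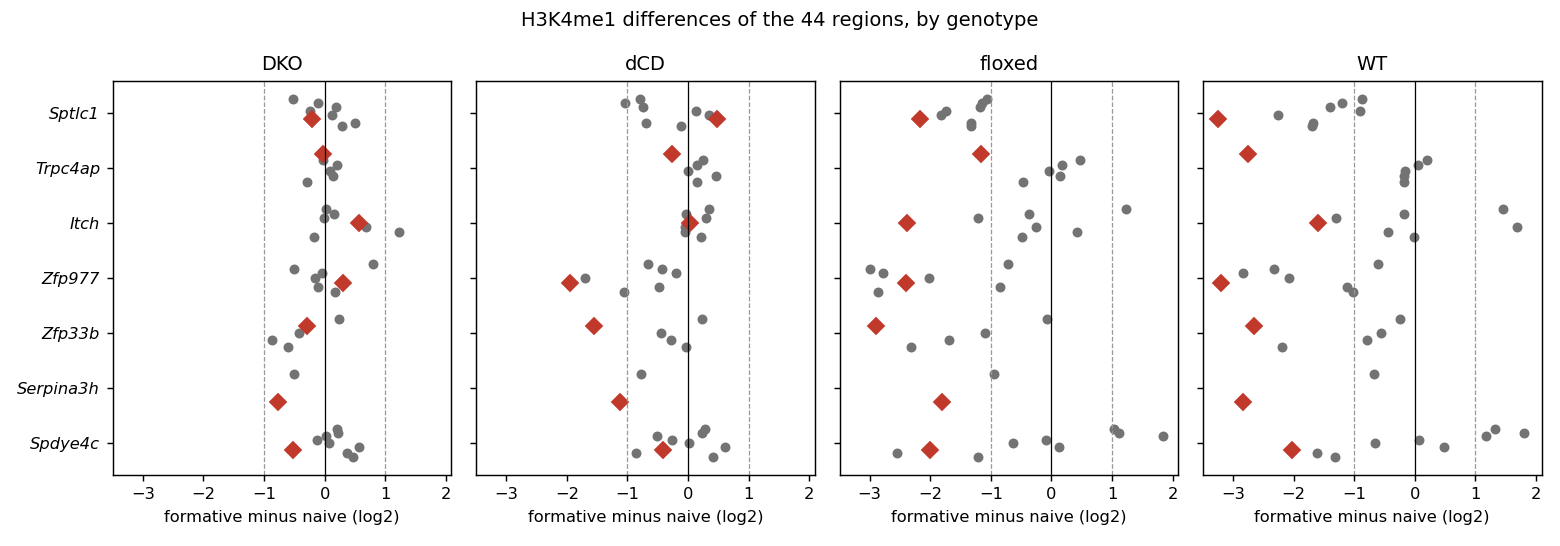
Formative minus naive log2 difference of each of the 44 regions, by locus and genotype; diamonds mark the lost regions, dashed lines a 2-fold difference. In DKO 43 of 44 points lie inside the 2-fold lines, while in WT 21 lie left of them and 5 right.

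In naive cells 14 of 44 regions were 2-fold lower in DKO than in the floxed line, against 15.9% of all regions, and 10 were lower in dCD than in WT, against 13.9%. The floxed line was 2-fold below WT at 1 region, against 4.38%. In formative cells 6 regions were lower in DKO than in the floxed line, against 16.7% of all regions, and 12 were higher, against 6.47%. In formative dCD against WT, 7 were lower, against 20.1%, and 8 higher, against 2.59%. The formative floxed line was below WT at 2 regions, against 3.83%. The lower counts of formative DKO and dCD were thus near or below the background. High naive and low formative values in WT and the floxed line chose the members. The direction of these mutant differences, lower in naive and higher in formative cells, is therefore in part set by the choice. Other scalings change these counts. With each group centred on its median, 16 formative regions were higher and 5 lower in DKO, and 15 higher and 1 lower in dCD. In naive cells the lower counts then became 9 in DKO and 6 in dCD, with 1 and 2 regions higher.

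The loci differed in how far the decrease spread. At Sptlc1 the 8 regions run through the gene, and in WT all 8 were below 0, from −3.24 at the lost region to −0.88. On either side of it the intronic region at −3.1 kb and the exon-overlapping region at 2.5 kb had differences of −2.26 and −1.69 in WT, with 0.12 and 0.51 in DKO. The region nearest the Sptlc1 start, 3.7 kb inside the gene, had 29.1 reads in formative and 101.0 in naive WT cells, against 100.1 in formative and 81.0 in naive DKO cells. At that region the DKO difference was 0.29 and the WT difference −1.69. The 14 neighbouring regions nearest Ror2, on one side, ranged from −0.96 to 0.95 in WT, so no Ror2 region reached 2-fold in WT. A Ror2 region at −41.1 kb was at −1.21 in the floxed line and −1.02 in DKO, and another at −97.4 kb was at −1.20 in dCD. On the other side, a Gm2762 region at 51.6 kb was at −1.46 in WT and −0.57 in DKO. An Msx2 region at 87.8 kb was at −1.01 in WT and −0.70 in DKO. The other regions nearest these genes lay between −0.49 and 0.40 in WT. Among them, a Gm2762 region at 42.9 kb was at −2.33 in the floxed line, with −0.41 in WT and 0.18 in DKO.

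At Trpc4ap the decrease was limited to the lost region among the 6 regions of the gene. Its other 5 regions lay between −0.19 and 0.20 in WT, between −0.48 and 0.47 in the floxed line and between −0.30 and 0.20 in DKO. The region 1.5 kb inside the gene had 103.7 reads in formative and 99.4 in naive WT cells, beside 164.4 in formative and 142.7 in naive DKO cells. Of these 5, 2 overlap exons of Edem2, upstream. The 29 neighbours within 100 kb of the lost region include these 5 regions. Of the 29, 8 were 2-fold lower in WT, against 11.4% of all regions. All 8 lie nearest Acss2os, Gss, Myh7b or Edem2, the lowest at −1.86 near Myh7b.

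At Itch decreases and increases stood side by side. The intronic region 3.5 kb before the lost region was also lower in WT, at −1.30, with 35.4 reads in formative and 91.0 in naive cells. In DKO that region had 54.1 reads in formative and 54.4 in naive cells, a difference of −0.01. An intronic region 13.2 kb beyond the lost region was higher in WT by 1.69 with only 20.6 reads in formative and 6.3 in naive cells, and was −0.26 in the floxed line. An upstream region was higher by 1.45 in WT and 1.24 in the floxed line, with 0.03 in DKO. The floxed value rests on only 6.7 reads in formative and 2.6 in naive cells, with an interval of −0.91 to 3.81. The region near the Itch start, 1.9 kb inside, was −0.18 in WT and 0.16 in DKO and had more reads in DKO, 158.0 in formative and 141.5 in naive cells, than in WT, 71.4 in formative and 81.4 in naive cells.

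At Zfp977 6 of 7 regions were 2-fold lower in WT and 5 in the floxed line, and most neighbours were lower too. Within 100 kb, 17 of 22 neighbours were 2-fold lower in WT and 17 in the floxed line, against 11.4% and 10.6% of all regions. In dCD 6 were lower and in DKO 0, against 2.47% and 1.25%. The 22 neighbours lie nearest Zfp141, Zfp977, Zfp976 and Zfp975, neighbouring zinc finger genes. The Zfp976 region at 31.7 kb from the lost region had 11.6 reads in formative and 69.9 in naive WT cells, a difference of −2.47, beside −0.54 in DKO. The Zfp141 promoter region was an exception at −0.01 in WT, and a Zfp975 region was at 0.31. Zinc finger and Serpina3 genes have close copies, and how reads that match several copies were assigned is not given in the sources used here.

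At Zfp33b 5 regions lie up to 132 kb from the start. The farthest had 6.1 reads in formative and 28.9 in naive WT cells, and differences of −0.61 in DKO, −2.32 in the floxed line and −2.18 in WT. The region over the Zfp33b start was flat, at 0.24 in DKO and −0.24 in WT. All 3 neighbours of the locus past 2-fold in WT lie nearest BC005561. At Serpina3h the region over the start was −0.50 in DKO and −0.68 in WT, and the neighbouring Serpina3g region at −10.8 kb was −0.54 in DKO and −1.60 in WT. All but 1 of the 7 Serpina3h neighbours had negative differences in both DKO and WT.

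At Spdye4c 3 regions were 2-fold lower and 3 higher in WT. The higher ones form a group 42 to 48 kb upstream, at 1.18 to 1.80 in WT, 1.04 to 1.84 in the floxed line and 0.03 to 0.22 in DKO. The middle region of that group had 103.1 reads in formative and 28.5 in naive WT cells, beside 31.6 in formative and 26.9 in naive DKO cells. Of the lower regions, those at 21.4 and 42.6 kb overlap Anapc1 exons, a gene of the anaphase-promoting complex, and the nearer of them was the lowest of the locus in the floxed line, at −2.55.

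**Figure D3:**
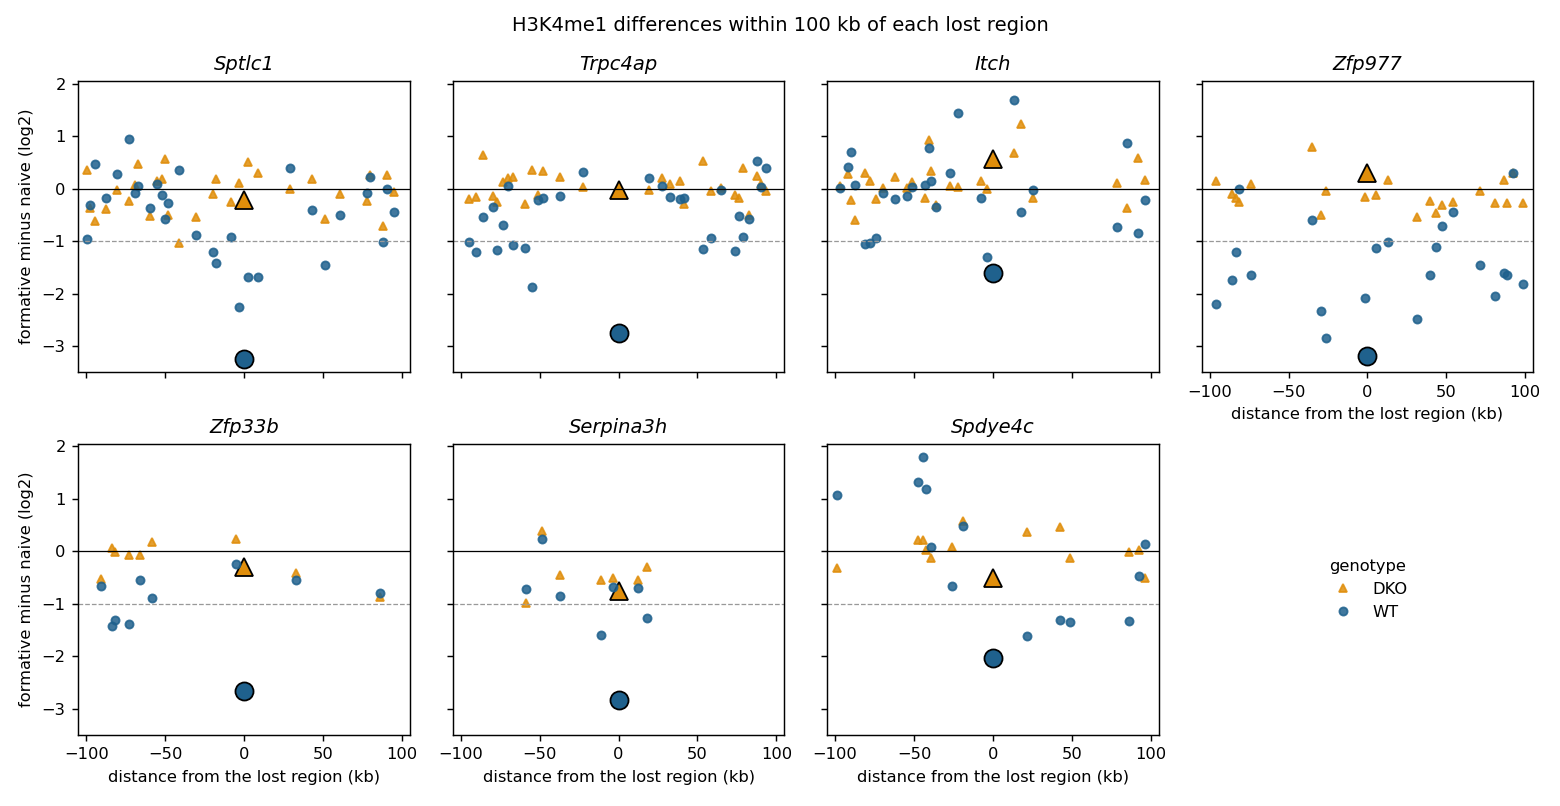
Formative minus naive log2 difference of every region within 100 kb of each lost region, by distance, in DKO (triangles) and WT (circles); large outlined symbols are the lost regions and the dashed line is 2-fold lower. Over the 7 loci 44 of 136 neighbours lie at or below the line in WT and 1 in DKO, against 11.4% and 1.25% of all regions. At Zfp977 17 of 22 do in WT.

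Taking all 7 loci, 44 of 136 neighbours within 100 kb were 2-fold lower and 6 higher in WT, against 11.4% and 11.1% of all regions. The lower share was 32.4%, with a Wilson 95% interval of 25.1 to 40.6% that treats the neighbours as independent draws. Adjacent regions of 7 loci are not independent, so the interval is a description and tests nothing. The neighbours include other regions of the member genes, so they are not independent of the selection. In DKO 1 neighbour was lower, in dCD 12 and in the floxed line 41, against 1.25%, 2.47% and 10.6% of all regions. The DKO count is thus near the share over all regions. Zfp977 alone gave 17 of the 44.

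H3K27ac, which the selection did not use, is available as the authors' deposited log2 folds from samples outside this series, with no replicate values. In the authors' deposited table, 10 of the 44 regions were 2-fold lower and 6 higher in H3K27ac in formative than in naive DKO cells, against 18% and 21.7% of all regions. In WT, 15 were 2-fold lower and 11 higher, against 18.8% and 33%. The median WT fold was −0.23 at the members, against 0.33 over all regions.

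In the authors' deposited table the H3K27ac folds at the lost regions, formative against naive, were 0.69 in DKO and −1.16 in WT at Sptlc1, 0.09 in DKO and −0.55 in WT at Trpc4ap, and −0.06 in DKO and −2.05 in WT at Itch. In the authors' deposited table they were −1.30 in DKO and −2.34 in WT at Zfp977, −1.67 in DKO and −2.35 in WT at Zfp33b, and −0.47 in DKO and −0.80 in WT at Spdye4c. Serpina3h was the exception in the authors' deposited table, at −1.99 in DKO and 1.02 in WT, so there WT H3K27ac was higher where H3K4me1 was lower. In DKO 5 of the 7 were below 0 and 3 were 2-fold lower, against 18% of all regions past 2-fold. In WT 6 were below 0 and 4 were 2-fold lower, against 18.8%. The 3 in DKO were Zfp977, Zfp33b and Serpina3h, where the DKO H3K4me1 difference did not reach 2-fold. Over all regions a 2-fold decrease in DKO was far commoner in H3K27ac than in H3K4me1, at 18% and 1.25%, so this contrast is not read further.

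All 5 Zfp33b regions had negative H3K27ac folds in both DKO and WT in the authors' deposited table, from −1.81 to −0.24 in DKO and from −2.97 to −1.83 in WT. Lower WT H3K27ac was shared by the surroundings at Zfp977 and Zfp33b. Within 100 kb, 15 of 22 Zfp977 neighbours were 2-fold lower and 2 higher, with a median of −1.88. Of 9 Zfp33b neighbours 5 were lower and 2 higher, with a median of −1.93. Over all regions 18.8% were lower. The neighbour medians of the other loci ran from −0.17 to 0.53. At Trpc4ap all 5 regions other than the lost one had positive folds in WT, from 0.21 to 2.27. The 3 Spdye4c regions with higher H3K4me1 in WT had H3K27ac folds of 1.64, 2.88 and −0.26. The 2 largest folds of the 44, 5.88 at an Itch region and 4.59 at a Zfp977 region, had H3K4me1 differences of −0.45 and −1.02, and the depth behind them is unknown. Comparing genotypes within a state, naive DKO was 2-fold below WT at 7 regions and above it at 11, against 22.8% and 24.7% of all regions. Formative DKO was below formative WT at 9 and above it at 14, against 27.8% and 18.9%. At the lost regions the formative DKO minus WT fold ran from −2.40 at Serpina3h to 1.502 at Zfp33b in the authors' deposited table.

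**Figure D4:**
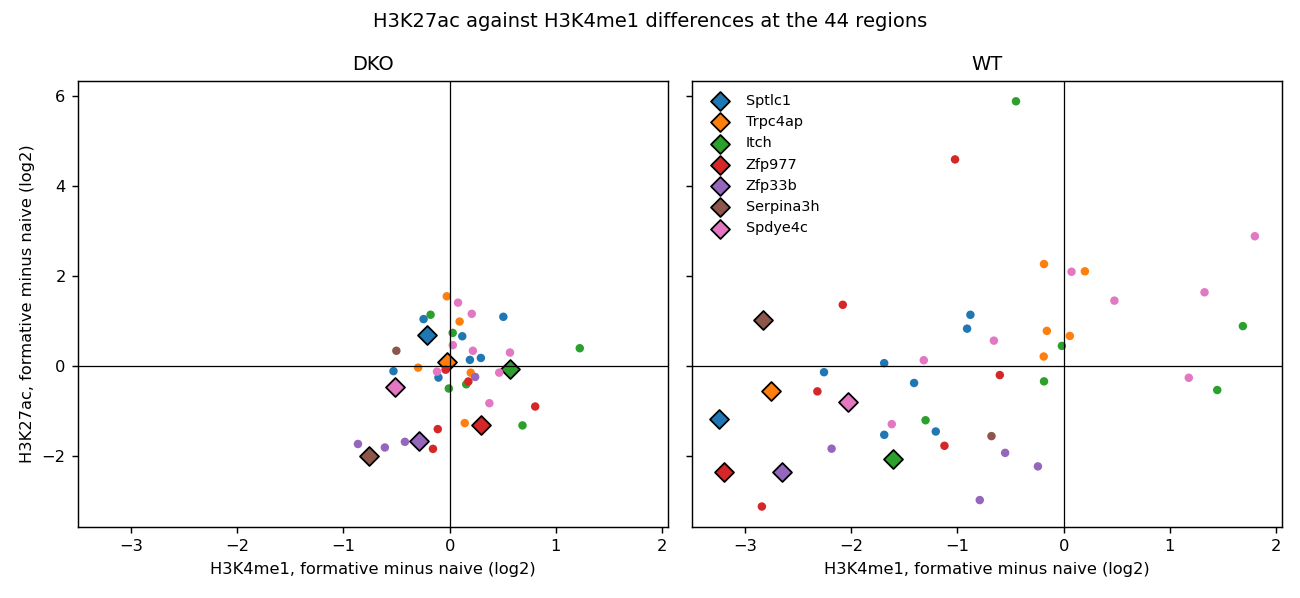
The authors' deposited H3K27ac log2 fold against the H3K4me1 log2 difference, both formative minus naive, for the 44 regions in DKO and WT; large outlined diamonds are the lost regions. In WT 6 of 7 diamonds lie in the lower left and Serpina3h, at 1.02, in the upper left, while in DKO all 7 lie between −0.76 and 0.57 on the horizontal axis.

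RNA of the nearest gene was listed for 3 members in the authors' deposited table, also from samples outside this series. For Sptlc1 the authors' deposited table gave a formative against naive fold of −0.38 in DKO and −0.12 in WT. For Itch these deposited folds were 0.17 in DKO and 0.56 in WT, and for Trpc4ap 0.40 in DKO and 0.46 in WT. The DKO minus WT folds were between 0.33 and 0.53 in naive cells and between 0.07 and 0.34 in formative cells. The deposited RNA folds of Itch stand beside its upstream region alone and those of Trpc4ap beside its 3 upstream regions, of which 2 overlap Edem2 exons. For Sptlc1 they stand beside all 8 regions, the lost region included. The RNA of Zfp977, Zfp33b, Serpina3h and Spdye4c was not analysed here.

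Related genes were read as loci, each the mean difference over regions within 50 kb of the start, and counted at 1.5-fold. Over 21558 loci, 15.1% were lower and 12.8% higher in WT, 1.03% were lower in DKO and 1.93% in dCD. Of 17 sphingolipid synthesis loci, 4 were lower in WT: Sptlc1 at −1.66, Kdsr, the reductase of the following step, at −0.75, and the ceramide synthases Cers1 at −0.70 and Cers2 at −0.66. None of the 17 was lower in DKO, and Sptlc2, the catalytic partner of Sptlc1, was at −0.49 in WT. Of 11 NEDD4-family ligase and adaptor loci, 1 was lower in WT, Wwp2 at −0.63, and Itch as a locus was at 0.35 in DKO and −0.06 in WT. Of 12 CUL4 and TRPC channel loci, 2 were lower, Ddb1, the CUL4 adaptor, at −1.14 and Trpc6 at −0.61. Trpc4ap as a locus was at −0.50 in WT.

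Serpina loci as a group stood opposite to Serpina3h. Of 13, 7 were higher and 3 lower in WT, with a median of 0.81 against −0.08 over all loci. Serpina6, corticosteroid-binding globulin, was at 2.53 and Serpina1f at 2.07, while Serpina3h was at −1.75, Serpina3g at −0.73 and Serpina3i at −0.69, all 3 from the Serpina3 cluster. Of the same cluster, Serpina3k was at −0.03 and Serpina3n at 0.19. Of 4 Speedy loci, 2 were lower, Spdye4a at −0.76 and Spdye4b at −0.59. Spdya was at 0.58, and Spdye4c itself was at −0.08. Of 14 loci within 1 Mb of Zfp977 or Zfp33b whose names begin with Zfp or Gm, 9 were lower and 0 higher in WT, with a median of −0.83. In dCD 6 of these 14 were lower and in DKO 0, with a DKO median of −0.03. That list holds both members.

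Markers of other cell types were read the same way in WT. Of 6 fibroblast loci 0 were lower and 4 higher, with a range of −0.25 at Col1a1 to 1.25 at Col1a2, and of 5 primitive endoderm loci 0 were lower and 3 higher, from −0.05 at Gata6 to 0.80 at Dab2. In DKO none of either list was past 1.5-fold. Their part in the decreases was not tested.

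Regions elsewhere with the most similar profile over the 8 groups were found by Euclidean distance between log2 profiles centred on their mean. Nearest to the Sptlc1 lost region was an intergenic region near Slc24a2, at a distance of 0.66, with differences of −0.13 in DKO and −2.51 in WT. Nearest to that of Spdye4c were regions near Smyd3 and Kit, both at 0.41. An intergenic region 7.8 kb from Insig2 was among the 3 nearest for both Sptlc1 and Trpc4ap, at 0.92 and 0.67. The Zfp977 profile was the least matched of the 7 by its nearest region, at 1.05, in an EU599041 intron, and there the dCD difference was −1.02.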

How the data were processed

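H3K4me1 was profiled by CUT&RUN in 16 of the 21 samples. The IgG and MLL4 libraries were not analysed here. The submitters' processing notes give the build mm10 and the tools Bowtie2, Trim Galore, deepTools, DiffBind and SEACR. Neither versions nor the handling of multiply matching reads are stated in the sources used here. The deposited levels are log2 values with 1 column per group of 2 libraries, per the file headers, and those of the floxed line are headed CKO. From their values, a level takes normalized reads divided by the squared width, scales them by a constant, adds 1 and takes the log2. Comparisons were therefore made inside single regions, and levels were turned back into reads. The authors' deposited table also gives a log2 fold, a p-value and an FDR for formative against naive WT cells, and log2 folds of H3K27ac and RNA from samples outside this series. Another 14 level columns were not used.

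Differences were taken between groups and counted at 2-fold, with 95% intervals for counting error. Regions were named from each member's regions, lost region, neighbours past 2-fold, listed genes and the 3 most similar regions. Not every one of these is given in the text. Members and lists were chosen with earlier results of these data known. Alternatives were other scalings, fold thresholds, a minimum of 32 reads, distances and a lost region chosen in the floxed line. The counting steps were tested on simulated data. All 186826 region ends lay within GRCm38 chromosome lengths, and 2 regions lacked levels. Python 3.11.15, pandas 2.3.3, scipy 1.17.1 and pysam 0.24.0 were used.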

Additional observations from a re-analysis of the deposited data

How the results depend on the processing

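No paired analysis was possible because each group has 1 pooled column, and for the same reason no replicate could be left out. Of the alternatives to the counts and shares, 47 stayed within 1.5 times and 14 did not, and all 140 values at single lost regions stayed within their counting intervals. Of these 140, 10 changed sign, all from differences of at most 0.14 in size. With a 4-fold rule, the regions lower in the formative state numbered 0 in dCD, 11 in the floxed line and 11 in WT. With a 1.5-fold rule they numbered 3 in DKO and 12 in dCD, and 11 regions were lower in naive DKO H3K27ac than in WT. Centring removed a difference between group medians of −0.21 for DKO minus floxed in both states, and of −0.35 in naive and −0.40 in formative cells for dCD minus WT, so values moved up by that size. With it, 9 naive regions were lower in DKO than in the floxed line and 6 in dCD than in WT, and 1 formative region was lower in dCD than in WT. With quantile normalization, 2 formative regions were lower in DKO than in the floxed line and 1 in dCD than in WT. With at least 32 reads, 0 regions were lower in the floxed line than in WT in naive cells and 0 in formative cells. Within 250 kb the share of neighbours lower in WT was 22.8%. The cause was not tested. Depth limits the Zfp977 lost region most, with 2.9 reads in formative and 28.6 in naive WT cells.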
